A study of Homo sapiens with 6 samples.

Results

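The genes of MHC class I antigen presentation are followed here in 22Rv1 cells, a human prostate carcinoma epithelial cell line. The members are 9 symbols picked by name from the 29804 of the count table: HLA-B, HLA-C, HLA-E, B2M, TAP1, TAP2, TAPBP, PSMB8 and PSMB9. RNA was sequenced from 3 groups of 2 libraries, labelled biological replicates 1 and 2. WT cells had no treatment and were taken at week 0, and AM (age matched) cells were grown for 6 weeks without drug. 6WP cells were grown for 6 weeks with 1 µg/ml of phleomycin, a radiomimetic that breaks DNA, for 1 hour on each week day. All groups were kept in RPMI medium with fetal bovine serum, penicillin and streptomycin, and the genotype label is WT for all of them, so that WT as a group name means only the parental cells. AM cells therefore differ from WT cells by time in culture, 6WP from AM cells by phleomycin, and 6WP from WT cells by both. The sources do not say whether replicates were separate 6 week cultures, and p-values measure the spread between these libraries.

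MHC class I molecules carry peptides from inside the cell to its surface, where T cells and natural killer cells read them. A heavy chain (encoded by HLA-B, HLA-C or HLA-E among these genes) pairs with the small invariant chain β2-microglobulin, the product of B2M. The peptides are cut by the proteasome, in which the interferon-induced catalytic subunits PSMB8 and PSMB9 can replace PSMB5 and PSMB6. TAP1 and TAP2 together form the pump that moves peptides into the endoplasmic reticulum, and TAPBP (tapasin) holds the empty class I molecule beside the pump. Many of these genes are induced by interferon through promoter elements bound by IRF, NF-κB and RFX proteins, and loss of class I expression is well known in tumours.

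Of these genes, 8 lie on chromosome 6 and B2M lies on chromosome 15 (GENCODE on GRCh38, the assembly named hg38 in the methods). From HLA-E at 30489509 to 30494194 the order is HLA-C (31268749 to 31272130), HLA-B (31353872 to 31367067), TAP2 (32821833 to 32838739), PSMB8 (32840717 to 32844679), PSMB9 (32844136 to 32859851), TAP1 (32845209 to 32853816), which lies within the span of PSMB9, and TAPBP (33299694 to 33314284). B2M spans 44711358 to 44718851. HLA-E, PSMB9 and B2M are on the plus strand and the others on the minus strand. The main transcripts of TAP1 and PSMB9 start 488 bases apart and run in opposite directions.

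The stretches of 250 bases before the transcription start are shown for 4 genes, HLA-B and HLA-C, whose RNA was lower in AM cells, and B2M and TAP1, for which no difference was called (RefSeq, GRCh38.p14, read 5′ to 3′ along the gene). Capitals mark matches, on either strand, to 5 motifs. These were the interferon response element core (GAAA, any 2 bases, GAAA), a variant of it 1 base shorter (GAA, any 2 bases, GAAA), an NF-κB site (GGGA, any 4 bases, CC), the Y box (CCAAT) and the core of the cyclic AMP response element (TGACG). Neighbouring matches can share bases.
HLA-B, chr6:31357180-31357429, minus strand: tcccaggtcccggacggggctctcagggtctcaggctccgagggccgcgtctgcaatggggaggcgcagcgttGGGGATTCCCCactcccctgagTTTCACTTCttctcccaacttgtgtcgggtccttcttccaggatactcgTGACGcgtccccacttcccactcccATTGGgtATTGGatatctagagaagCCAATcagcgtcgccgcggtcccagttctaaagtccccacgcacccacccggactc
HLA-C, chr6:31272093-31272342, minus strand: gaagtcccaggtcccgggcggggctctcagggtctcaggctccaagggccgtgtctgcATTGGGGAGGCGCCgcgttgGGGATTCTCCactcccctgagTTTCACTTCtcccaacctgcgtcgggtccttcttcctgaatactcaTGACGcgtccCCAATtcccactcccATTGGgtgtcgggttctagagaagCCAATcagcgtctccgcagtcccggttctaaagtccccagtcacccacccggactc
B2M, chr15:44711267-44711516, plus strand: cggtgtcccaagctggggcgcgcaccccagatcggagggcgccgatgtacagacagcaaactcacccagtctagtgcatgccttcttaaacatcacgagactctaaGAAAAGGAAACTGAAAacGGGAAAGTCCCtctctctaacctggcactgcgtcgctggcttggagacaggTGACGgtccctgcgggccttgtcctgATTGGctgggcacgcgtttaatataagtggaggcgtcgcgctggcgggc
TAP1, chr6:32853705-32853954, minus strand: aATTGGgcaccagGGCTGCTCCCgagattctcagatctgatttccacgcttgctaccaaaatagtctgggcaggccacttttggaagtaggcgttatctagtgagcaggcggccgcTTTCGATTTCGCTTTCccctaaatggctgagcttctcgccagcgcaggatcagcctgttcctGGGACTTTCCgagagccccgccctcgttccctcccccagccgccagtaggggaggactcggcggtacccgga
The windows of HLA-B and HLA-C were alike, with 226 identical bases in 254 alignment columns (89.0%). Both held the shorter variant once (155 and 151 bases before the start for HLA-B and HLA-C) and no match to the interferon core. That core was found in the windows of B2M, TAP1, TAP2 and TAPBP, against 3.02% of all 35116 promoter windows of this length. The shorter variant was found in 6.56% of all windows, the NF-κB site in 22.6%, the Y box in 32.0% and TGACG in 21.2%. Of the members with a RefSeq window at the main start, PSMB8 and PSMB9 held neither form of the interferon element. A match describes letters in the reference and not bound sites, and the variant was added to the search after the windows had been read. The window of HLA-E was not analysed here.

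The libraries held between 21222201 and 35311945 counts, and 3 counts, taken as the floor of detection, equal 0.0883 to 0.138 CPM, the unit of level used here (counts scaled to a common library size with TMM factors). Such floors cover counting error only. All 9 members passed the expression filter, as did 14672 genes in all. All 10 markers of prostate epithelium were detected in every group. Their summed level was 3420 to 3620 CPM in WT, 2390 to 2710 in AM and 2850 to 3980 in 6WP libraries. Of 8 leukocyte markers, PTPRC, CD3E and CD53 had no count in any library. The leukocyte sum was 5.28 to 5.67 CPM in WT, 8.70 to 9.22 in AM and 3.95 to 4.77 in 6WP libraries, so it was highest in AM cells. The sum of 6 stromal markers was 2.53 to 3.04, 1.3 to 1.72 and 2.08 to 2.46 CPM in the same order. The part of these marker differences in the results was not tested. In bulk RNA, fewer cells that express a gene and less RNA per cell cannot be told apart.

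In AM cells, the class I heavy chains HLA-B, HLA-C and HLA-E, the immunoproteasome subunit PSMB8 and the transporter subunit TAP2 were lower than in WT cells. The differences were 2.70-fold for HLA-B, 2.85-fold for HLA-C, 1.99-fold for HLA-E, 4.35-fold for PSMB8 and 1.49-fold for TAP2 (ratios of mean CPM, n = 2 each). B2M, TAP1, TAPBP and PSMB9 did not pass the test. This comparison asks what 6 weeks of culture alone changed. Thus 5 of the 9 members passed (adjusted p-value under 0.05), all lower and 0 higher. Of all tested genes 17.7% passed, with 9.93% lower and 7.74% higher. At an unadjusted p-value under 0.05 there were 6 members, TAP1 being added, and 35.3% of all tested genes. The median log2 fold change of the members was -0.58, beside -0.0023 for all tested genes. Both AM libraries lay below both WT libraries in 8 members, all but B2M, as they did in 36.9% of tested genes. These 5 calls needed both libraries of each compared group. Without WT replicate 1, WT replicate 2, AM replicate 1 or AM replicate 2, 0 members passed, and only 46 to 123 of the tested genes did, while the log2 fold change of HLA-C stayed between -1.64 and -1.38 and that of PSMB8 between -2.25 and -1.99. Without 6WP replicate 1 or 2, it was -1.51 or -1.49 for HLA-C and -2.12 or -2.10 for PSMB8.

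**Figure D1:**
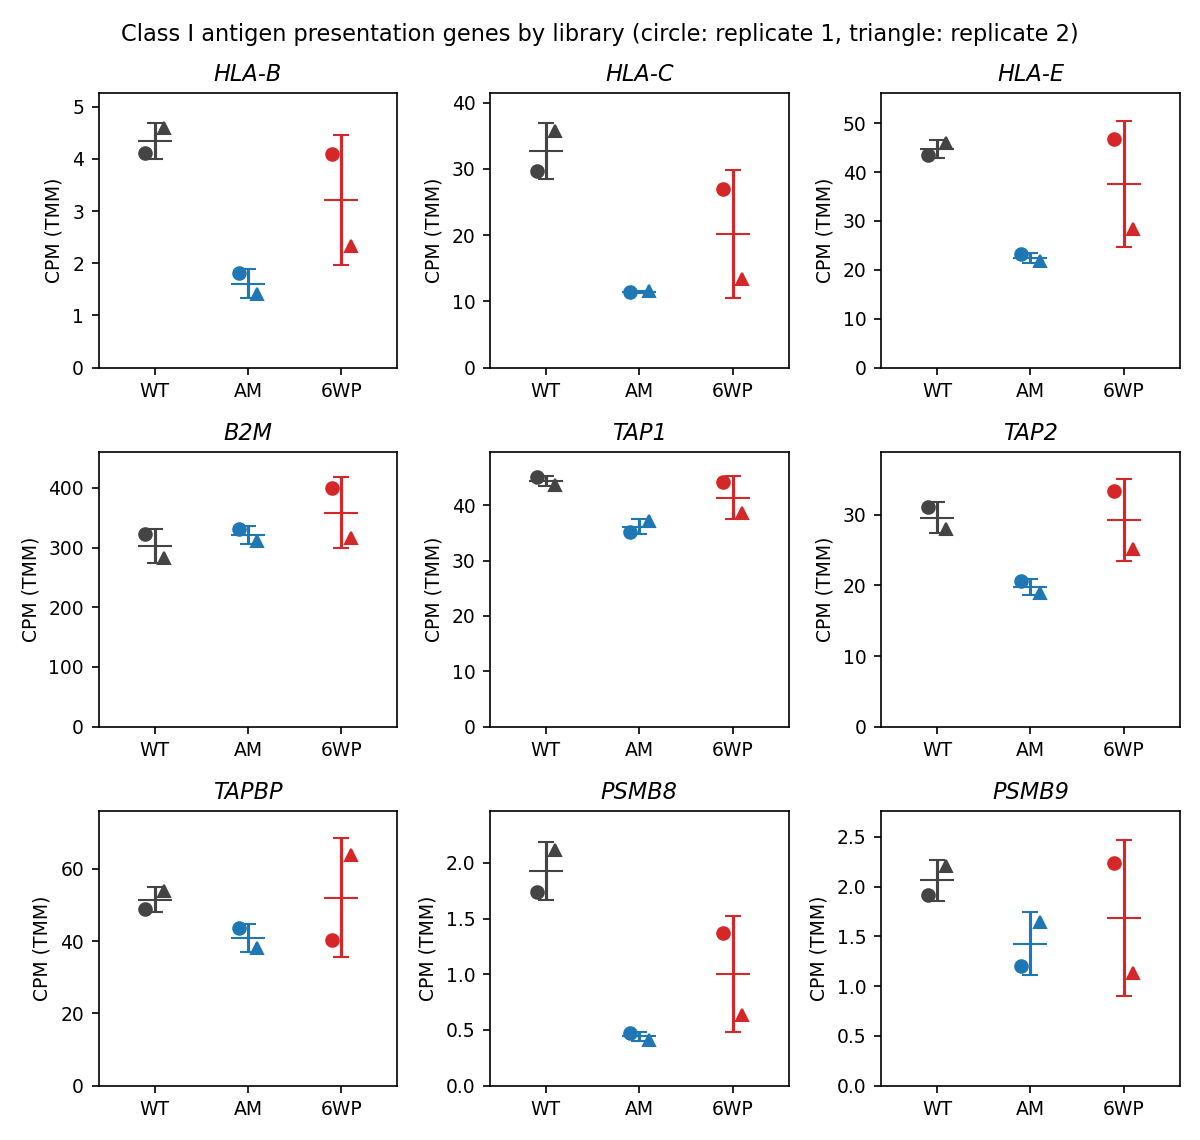
Level of each of the 9 genes in TMM-normalized CPM (vertical axes from 0) in WT, AM and 6WP cells, with replicate 1 as circles, replicate 2 as triangles and the mean ± SD of 2 libraries as bars. For HLA-B, HLA-C, HLA-E, TAP2 and PSMB8 both AM libraries lie below all other libraries, while for B2M the 3 groups overlap.

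HLA-C, which like HLA-B encodes a classical heavy chain that presents peptides to T cells, was measured at 29.7 and 35.7 CPM in the WT libraries. The AM libraries had 11.4 and 11.6 CPM, and the 6WP libraries 27.0 and 13.3. The AM libraries were close together and below all others, whereas 6WP replicate 1 lay near WT and replicate 2 near AM. In AM against WT cells the log2 fold change of HLA-C was -1.51 (SE, its standard error, 0.29; adjusted p = 0.0146). The quasi-likelihood test of edgeR gave this and every later p-value that names no other tool. HLA-B was measured at 4.11 and 4.59 CPM in WT, 1.81 and 1.41 in AM, and 4.09 and 2.33 in 6WP libraries, from 42 to 113 counts. It had the same order as HLA-C, with AM lowest and 6WP replicate 2 between AM and WT. Its log2 fold change in AM against WT cells was -1.44 (SE 0.32, adjusted p = 0.0230). HLA-E encodes a non-classical heavy chain that is read mainly by natural killer cell receptors. Its levels were 43.4 and 46.0 CPM in WT, 23.2 and 21.7 in AM, and 46.7 and 28.4 in 6WP libraries. AM was again lowest without overlap, and 6WP replicate 1 was as high as WT. The log2 fold change in AM against WT cells was -0.99 (SE 0.21, adjusted p = 0.0202).

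Class I genes are similar in sequence, so that reads could be assigned to the wrong gene. Of all stretches of 100 bases (the read length) in the main transcript, 0.277% for HLA-C and 0.612% for HLA-E occurred unchanged in transcripts of other genes. For HLA-B this share was 12.0%, all from a pseudogene on the opposite strand that overlaps 23.7% of its transcript. These shares hold for the reference sequence, and how reads of the alleles of 22Rv1 cells align to it was not tested.

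B2M was measured at 322 and 282 CPM in WT, 332 and 311 in AM, and 401 and 316 in 6WP libraries. The 3 groups overlapped. Its log2 fold change in AM against WT cells was 0.09, with a 95% interval from -0.23 to 0.41 and an adjusted p = 0.682, so that a fall as large as that of HLA-E lies outside the interval. Upper quartile normalization turned this value to -0.0027. Per kb of transcript, B2M RNA was 7.77 ± 1.42 times the sum of HLA-B, HLA-C and HLA-E for WT, 19.7 ± 0.37 for AM and 13.4 ± 3.32 for 6WP cells (means ± SD of 2 libraries). The ratios were 8.77 and 6.77 in the WT, 19.9 and 19.4 in the AM, and 11.0 and 15.7 in the 6WP libraries, and the groups did not overlap. With 2 libraries against 2, an exact permutation test cannot give a p below 0.333 (two-sided), so these ratios are given as descriptions.

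**Figure D2:**
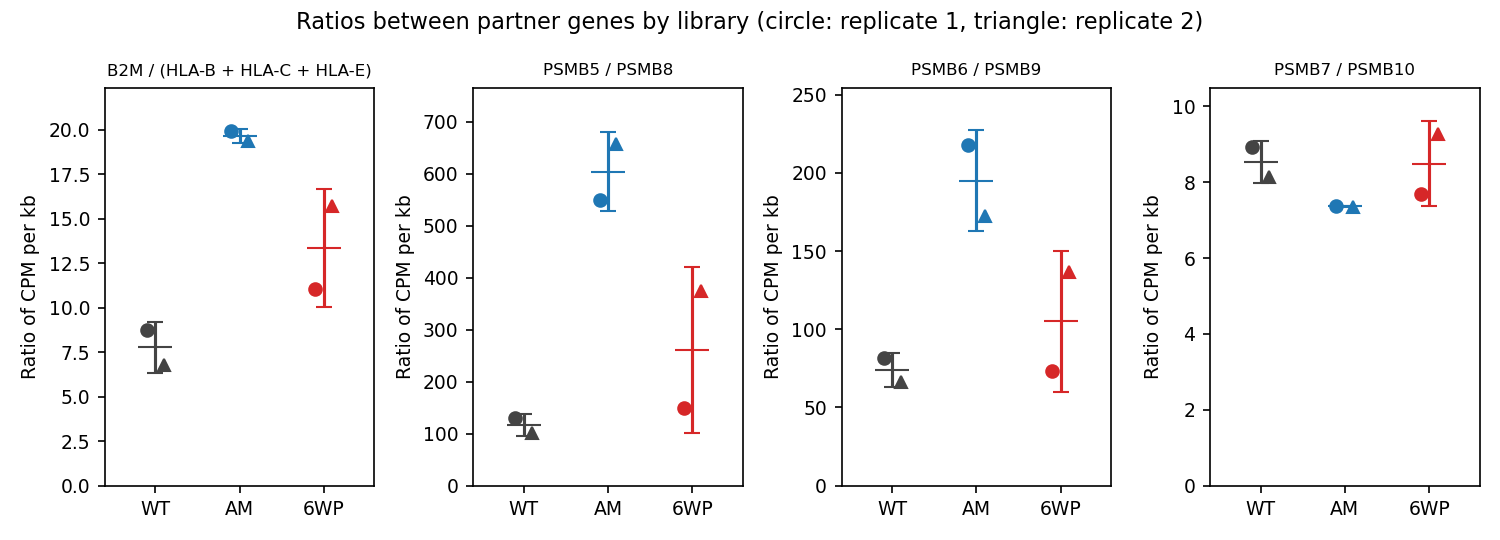
Ratio of expression per kb of transcript (vertical axes from 0) between B2M and the sum of 3 heavy chain genes, and between each constitutive catalytic subunit of the proteasome and its immunoproteasome counterpart, in each library (circle for replicate 1, triangle for replicate 2, bars for mean ± SD of 2). AM libraries are highest in the first 3 panels and lowest in the last.

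PSMB8 was measured at 1.74 and 2.11 CPM in WT, 0.474 and 0.412 in AM, and 1.37 and 0.634 in 6WP libraries. These values rest on 11 to 46 counts a library, above the floor in every library. Both AM libraries were below all others. PSMB8 had the largest fall among the members in AM against WT cells, its log2 fold change being -2.12 (SE 0.44, adjusted p = 0.0177). PSMB9 was measured at 1.92 and 2.20 CPM in WT, 1.21 and 1.65 in AM, and 2.24 and 1.13 in 6WP libraries, from 28 to 62 counts. The AM libraries lay below the WT libraries, but the log2 fold change of -0.51 (95% interval -1.38 to 0.36) had an adjusted p = 0.361. PSMB5, PSMB7 and the third immunoproteasome subunit, PSMB10, are named as partners of these genes, outside the rule for naming and after their values were seen. PSMB6, which PSMB9 replaces, was higher in AM than in WT cells, by a log2 fold change of 0.86 (adjusted p = 0.00429). PSMB10 was also higher, by 0.65 (adjusted p = 0.0289), and PSMB7, which it replaces, by 0.43 (adjusted p = 0.0328). PSMB5, which PSMB8 replaces, had a log2 fold change of 0.27 and did not pass (adjusted p = 0.134). Thus PSMB8 fell where PSMB10 rose. Per kb, PSMB5 exceeded PSMB8 by 131 and 101 times in the WT, 550 and 657 times in the AM, and 148 and 374 times in the 6WP libraries. The ratio of PSMB7 to PSMB10 moved little by comparison, being 8.53 ± 0.56 for WT, 7.36 ± 0.023 for AM and 8.49 ± 1.12 in 6WP cells (means ± SD of 2 libraries).

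TAP2 was measured at 31.1 and 28.02 CPM in WT, 20.6 and 19.0 in AM, and 33.4 and 25.1 in 6WP libraries. AM was lowest without overlap, and in AM against WT cells its log2 fold change was -0.58 (SE 0.16, adjusted p = 0.0448). TAP1, the other subunit of the pump, had 45.0 and 43.7 CPM in WT, 35.2 and 37.1 in AM, and 44.2 and 38.6 in 6WP libraries. The same order was seen at a smaller size, the log2 fold change in AM against WT cells being -0.30 with an adjusted p = 0.117. TAPBP had 49.0 and 53.9 CPM in WT, 43.6 and 38.0 in AM, and 40.4 and 63.8 in 6WP libraries. Its 6WP libraries lay on either side of both WT libraries, and the log2 fold change in AM against WT cells was -0.33 (adjusted p = 0.275). With only the WT and AM libraries in the model, TAP1 and TAPBP passed as well, which gave 7 of the 9 members. Of the 14672 tested genes 6635 passed in that model, against 2593 in the model of all libraries. Annotated exons of other genes cover 35.8% of the TAP2 transcript on the same strand. On the opposite strand they cover 21.5% of TAP1 (PSMB8-AS1) and 40.5% of TAPBP. The kit kept strand, but the strand setting of the counting is not given in the sources used here, so reads of these partners could be among the counts.

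Per kb of transcript, B2M was the most abundant member in every library, at 299 to 425 CPM per kb. In WT cells HLA-C followed with 21.2 ± 2.78, then HLA-E with 17.6 ± 0.74, TAP1 with 16.5 ± 0.35 and TAPBP with 14.9 ± 1.01 (SD, n = 2 each). Of neighbours in this order, HLA-E and TAP1 differed by less than the sum of their SDs. TAP2 had 5.24 ± 0.39, HLA-B 2.83 ± 0.22, PSMB9 2.03 ± 0.20 and PSMB8 1.71 ± 0.23 CPM per kb, the last pair likewise within their SDs. In AM cells HLA-C, at 7.45 ± 0.11, had dropped below HLA-E (8.82 ± 0.41), TAPBP (11.8 ± 1.14) and TAP1 (13.5 ± 0.49).

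Phleomycin was the difference between 6WP and AM cells. HLA-E and TAP2 were higher in 6WP cells, 1.67-fold and 1.48-fold by mean CPM, and the other 7 members did not pass. Their log2 fold changes were 0.74 for HLA-E (SE 0.21, adjusted p = 0.0423) and 0.57 for TAP2 (SE 0.16, adjusted p = 0.0425). These 2 of 9 compare with 21.3% of all tested genes that passed, 11.7% higher and 9.68% lower. At an unadjusted p-value under 0.05 there were 5 members (37.1% of all tested genes), with HLA-B (log2 fold change 1.003, adjusted p = 0.0610), HLA-C (0.81, adjusted p = 0.0838) and PSMB8 (1.18, adjusted p = 0.1005). Both 6WP libraries lay above both AM libraries in 6 members (33.8% of tested genes did so), namely HLA-B, HLA-C, HLA-E, TAP1, TAP2 and PSMB8. The members had a median log2 fold change of 0.57, beside 0.048 for all tested genes. For B2M the log2 fold change was 0.16, with a 95% interval from -0.16 to 0.48.

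The number of members called in 6WP against AM cells depended on the libraries and the test. With the WT libraries left out of the model 0 members passed, where 1299 of the 14672 tested genes did, against 3131 in the model of all libraries. Leaving out 1 WT or AM library also lowered the number called, among the members and among all tested genes. Without AM replicate 1 or AM replicate 2 the log2 fold change was 0.80 or 0.70 for HLA-E and 0.63 or 0.51 for TAP2. Without 6WP replicate 2 the log2 fold change was 1.03 for HLA-E and 0.74 for TAP2, and without 6WP replicate 1 it was 0.34 and 0.35. In the same order it was 1.21 and 0.21 for HLA-C, and -0.036 and 0.65 for TAPBP. HLA-B and HLA-C passed in addition to HLA-E and TAP2 with the Wald test of DESeq2 and the exact test of edgeR. This gave 4 members each, where 3490 and 3917 of the 14672 tested genes passed.

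The comparison of 6WP with WT cells joins the time in culture with the drug. None of the members passed here, with 0 of 9 by the quasi-likelihood test, the exact test of edgeR and DESeq2. By the first, 3.00% of all tested genes passed (1.63% higher and 1.37% lower). By the exact test 1419 and by DESeq2 1114 of the 14672 tested genes did. At an unadjusted p-value under 0.05 there were 2, as there were 22.4% of all tested genes. These were HLA-C, with a log2 fold change of -0.70 (95% interval -1.36 to -0.041, adjusted p = 0.203), and PSMB8, with -0.94 (95% interval -1.85 to -0.034, adjusted p = 0.210). HLA-B, HLA-C and PSMB8 were lower in both 6WP libraries than in both WT libraries, which held for 25.2% of tested genes, and 0 members were higher in both (25.5% of tested genes). The median over the members was -0.25 on the log2 scale, beside 0.014 for all tested genes. The 95% intervals of the other members all included 0. The widest was that of PSMB9 (-1.15 to 0.57) and the narrowest that of TAP1 (-0.37 to 0.17). That of B2M reached from -0.074 to 0.57. For each gene a change within its own interval is not excluded.

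**Figure D3:**
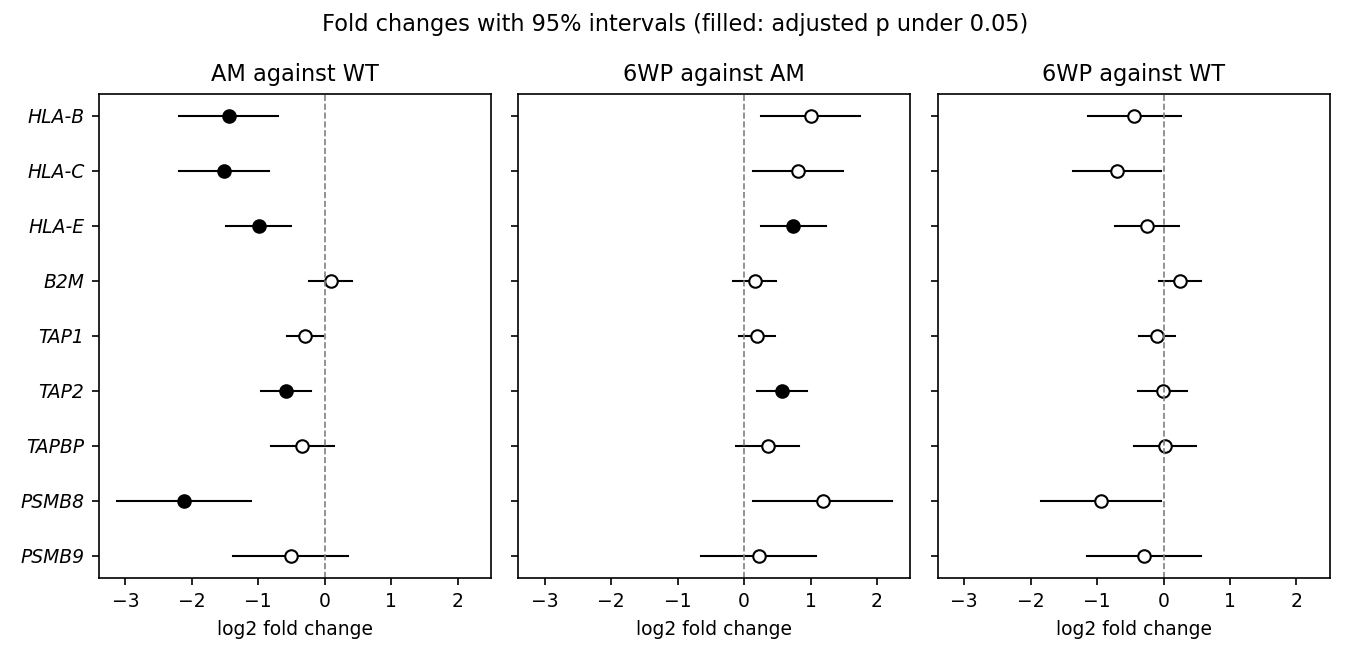
Log2 fold change (horizontal axis) of each of the 9 genes with its 95% interval in the 3 comparisons, with filled circles for an adjusted p-value under 0.05. There are 5 filled circles in AM against WT, 2 in 6WP against AM and 0 in 6WP against WT.

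The 6WP libraries lay far apart for most members. For 8 of the 9 members 6WP replicate 1 was higher than replicate 2, TAPBP being the exception. The median difference between the 6WP replicates was 0.71 in log2 CPM for the members and 0.28 for all tested genes. In WT cells it was 0.16 for the members and 0.12 for all, and in AM cells 0.12 and 0.13. For HLA-C, 6WP replicate 1 was 0.27 below the WT mean on the log2 scale and 1.23 above the AM mean, whereas replicate 2 was 1.29 below the WT mean and 0.21 above the AM mean. HLA-B, HLA-E and PSMB8 were alike in this, with replicate 1 nearer to WT and replicate 2 nearer to AM cells. Without 6WP replicate 1 the log2 fold changes against WT cells were -0.90 for HLA-B, -1.30 for HLA-C, -0.65 for HLA-E and -1.595 for PSMB8. Without 6WP replicate 2 they were -0.092, -0.28, 0.060 and -0.49 in the same order. For B2M they were 0.066 without replicate 1 and 0.40 without replicate 2, and for TAPBP 0.31 and -0.35. The lone 6WP library is then assumed to vary like the other groups. The comparison thus rests on which 6WP library is used, and chi-square per degree of freedom between the replicates was 63.9 for 6WP, 9.14 for AM and 5.67 for WT cells over all genes.

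Other genes of the pathway were taken from lists compiled for this pathway. Among further class I-like genes, MR1 and FCGRT fell from WT to AM cells and rose from AM to 6WP cells. MR1, which presents vitamin B metabolites to T cells, had 19.6 and 21.8 CPM in WT, 4.87 and 3.15 in AM, and 17.0 and 20.7 in 6WP libraries. Its 6WP libraries overlapped the WT libraries. FCGRT, the neonatal Fc receptor that also pairs with β2-microglobulin, had log2 fold changes of -1.03 in AM against WT (adjusted p = 0.0123) and 1.19 in 6WP against AM cells (adjusted p = 0.00703).

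The chaperones that fold and load class I molecules went the other way. Of 5 tested loading partners, CALR (calreticulin), CANX (calnexin) and PDIA3 were higher in AM than in WT cells, with log2 fold changes of 0.51, 0.41 and 0.63, and 0 were lower. All 3 were lower in 6WP than in AM cells, by -1.47, -0.85 and -1.15. Against WT cells CALR was lower in 6WP cells (log2 fold change -0.96, adjusted p = 0.00830), and CANX and PDIA3 did not pass. These chaperones serve many glycoproteins besides class I. Of 8 proteasome partners and activators, 6 were higher in AM than in WT cells and 0 were lower, and 6 were lower in 6WP than in AM cells. For these and the loading partners, the shares over all tested genes were 7.74% higher in AM against WT and 9.68% lower in 6WP against AM cells. The 6 proteasome genes included the assembly factor POMP and the activator subunits PSME2 and PSME3 besides PSMB6. The median log2 fold change of the 8 in AM against WT cells was 0.50, while that of the 9 members was -0.58.

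Among 20 regulators of class I transcription 19 were tested, of which 1 was lower and 0 were higher in AM than in WT cells. Over all tested genes 9.93% were lower and 7.74% higher, so the calls in this list were not above these shares. The lower gene was RFX5, a subunit of the RFX complex on class I and class II promoters. RFX5 had 92.8 and 93.0 CPM in WT, 45.5 and 48.0 in AM, and 93.4 and 54.3 in 6WP libraries. It thus had AM lowest and the 6WP libraries apart, as the heavy chains did, and its log2 fold change in AM against WT cells was -0.99 (adjusted p = 0.0230). In 6WP against AM cells the receptor genes IFNGR1 and IFNGR2 for interferon gamma were higher (log2 fold changes 0.42 and 0.62). NLRC5, the main transactivator of class I genes, was not tested because of 3 to 11 counts a library, and is named after its values were seen. Of 14 tested interferon-stimulated genes, 7 fell and 0 rose from WT to AM cells, where 9.93% of all tested genes were lower and 7.74% higher. IFITM1, which restricts virus entry, had 4.55 and 4.73 CPM in WT, 1.03 and 0.795 in AM, and 3.47 and 2.40 in 6WP libraries, with AM lowest. MX1, BST2 and IFI35 were likewise called in AM against WT cells, MX1 with a log2 fold change of -1.60 and BST2 with -1.081. IFI35 fell there from 7.23 and 7.03 to 3.66 and 3.47 CPM (adjusted p = 0.0191). In 6WP against AM cells 2 of the 14 were higher, IFITM1 (1.70) and IFI35 (1.11), a share close to the 11.7% of all tested genes. In 6WP against WT cells 1 was lower, BST2 (-1.04, adjusted p = 0.0451).

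Positions were found by symbol for 12865 of the 14672 tested genes, and only these are counted here. The 8 members on chromosome 6 share a region of 2.82 megabases with 79 other such genes. Of these others 2 fell from WT to AM cells (2.53%), namely ATF6B and HLA-DMB, and 5 were higher (6.33%). In the rest of chromosome 6, 83 of 557 tested genes were lower (14.9%). The median log2 fold change was 0.12 for the other genes of the region and -0.79 for the 8 members.

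**Figure D4:**
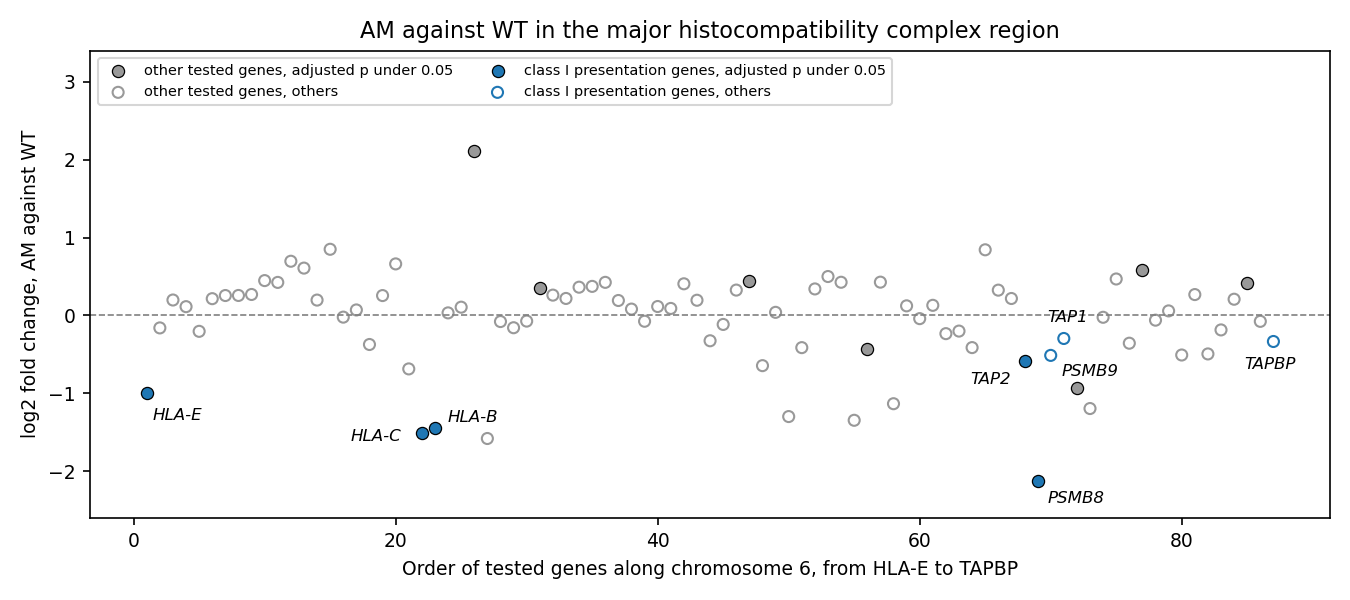
Log2 fold change in AM against WT cells (vertical axis) of the 87 tested genes with a position from HLA-E to TAPBP. Genes are in their order along chromosome 6 (horizontal axis, rank), with members in blue and other genes in grey. Filled circles mark an adjusted p-value under 0.05. The heavy chain genes and PSMB8 lie below most of their neighbours.

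Among the genes whose pattern over the 6 libraries was most like the mean of the members (each gene's log2 CPM centred on its own mean) were HOXC10, TLDC2, AKR7A3 and SLC8B1. Pearson's r was 0.996, 0.993, 0.992 and 0.992, in a comparison of 12030 genes with a mean of at least 1 log2 CPM. These points are 3 groups of 2 libraries and share the low AM level, and r is given as a description. HOXC10, a homeobox transcription factor, had 9.11 and 10.2 CPM in WT, 2.97 and 2.97 in AM, and 8.28 and 4.51 in 6WP libraries.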

How the data were processed

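RNA from 22Rv1 cells in 3 groups of 2 libraries was sequenced as 100 bp single end reads. The authors deposited unnormalized counts, 1 row for each gene symbol. According to the methods, reads were aligned to hg38 with STAR 2.5.3a, followed by StringTie 1.3.3, quantification, TMM normalization and edgeR 3.22.3. The processing notes of the submitters also name featureCounts 1.5.3. The strand setting, the annotation and the treatment of reads with several alignments are not given in the sources used here, and the deposited counts are without TMM scaling. All 6 columns were used.

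From these counts, TMM factors and a quasi-likelihood model of all 6 libraries were fitted with edgeR 4.0.16 in R 4.3.3 to the 14672 genes that passed filterByExpr, with a mean per group and no covariate. Tests were two-sided, with Benjamini-Hochberg adjustment across the 14672 genes and a threshold of 0.05. A standard error (SE) is the fold change on the log2 scale over the root of its F statistic, and 95% intervals use the moderated degrees of freedom. CPM are scaled by TMM, and log2 CPM use a prior count of 2. Values per kb use the MANE Select transcript of GENCODE on GRCh38. The code was tested on simulated counts. The deviations of same-numbered replicates from their group means had correlations of 0.087, -0.021 and 0.040 over genes for 6WP with WT, 6WP with AM and AM with WT.

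The members and lists were chosen with earlier results of these data known. Named from other lists are at most 4 genes each, those with the smallest adjusted p-value among called genes, and genes outside this rule are marked. Alternatives were DESeq2 size factors, upper quartile scaling, library size only, 2 filters, the Wald test of DESeq2 1.42.0, the exact test, the compared groups alone, a replicate block and each library left out. Results for some listed genes are not reported here.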

Additional observations from a re-analysis of the deposited data

How the results depend on the processing

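In AM against WT cells 5 members were called, and the same genes with every other scaling, filter and test tried and with the replicate block. The 2 groups alone gave 7, and 6635 of all 14672 tested genes. Leaving out 1 library changed the number called, among the members and among all tested genes. In 6WP against AM cells 2 were called, and 3 with upper quartile scaling (HLA-B added). There were 4 with no filter beyond 1 count in total, 4 with the Wald test of DESeq2 and 4 with the exact test. With only the 2 groups compared there were 0. The number moved up or down with 1 library left out, among the members and among all tested genes. In 6WP against WT cells 0 were called under every alternative except leaving out 1 of the 6WP libraries. That raised the number called among the members and among all tested genes. With the replicate block the counts were 0 in 6WP against WT, 2 in 6WP against AM and 5 in AM against WT, so the block changed no call. The numbers were not taken as pairs. The causes of these differences were not tested.

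Of the values that changed sign only TAPBP in 6WP against WT without 6WP replicate 2 passed the test. The log2 fold change of TAPBP in 6WP against WT was -0.00012 with DESeq2 size factors, -0.013 with library size only, -0.00020 with the Wald test, and -0.35 to 0.31 with 1 library left out (-0.050 without WT replicate 1). That of B2M in AM against WT was -0.0027 with upper quartile scaling and -0.018 to 0.19 with 1 library left out. With 1 library left out, values in 6WP against WT reached from -0.65 to 0.060 for HLA-E, -0.24 to 0.17 for TAP2 (0.063 without WT replicate 1) and -0.87 to 0.12 for PSMB9. In 6WP against AM they reached from -0.022 to 0.30 for B2M, -0.036 to 0.65 for TAPBP and -0.36 to 0.60 for PSMB9. PSMB8, PSMB9 and HLA-B rest on few counts, which limits their precision.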

Other observations

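Among MHC class II genes, which are usually expressed in antigen-presenting cells, 4 of 11 in the table passed the filter. HLA-DQB1 was the most abundant of them, with 91.5 and 82.9 CPM in WT, 109 and 109 in AM, and 132 and 108 in 6WP libraries, and it is named after its values were seen. Its log2 fold changes did not pass in any comparison (adjusted p = 0.112 in AM against WT cells, 0.463 in 6WP against AM cells and 0.0900 in 6WP against WT cells, by edgeR). From the same list, CD74 and CIITA had 0 counts in every library. HLA-DQA1 had 1 count, in 6WP replicate 2, and HLA-DRA had 4 to 10 counts a library. These genes are also named after their values were seen. HLA-DMB, a chain of the class II peptide editor, had 11.6 and 11.4 CPM in WT, 5.73 and 6.27 in AM, and 12.5 and 12.0 in 6WP libraries. It was lower in AM than in WT cells (log2 fold change -0.93, adjusted p = 0.00958) and higher in 6WP than in AM cells (1.03, adjusted p = 0.00621). HLA-DMA, named after its values were seen, did not pass in either. Its log2 fold changes were -1.20 (adjusted p = 0.0629) and -0.027 (adjusted p = 0.969).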
